A study of Mus musculus with 14 samples.

Results

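Caspases are the cysteine proteases that carry out apoptosis and pyroptosis, and 6 of their genes were followed here: Casp1, Casp2, Casp4, Casp6, Casp8 and Casp9. They were chosen by name, as probe sets annotated to 1 of these symbols alone, and are 6 of the 19752 genes with a probe set of a single symbol. Each had 1 probe set, and none shared a probe set with another member. In the comparisons, 5 of the 6 were tested, because the Casp1 probe set was dimmer than the minimum set for testing.

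The study measured RNA of splenic CD4+ T cells from male C57BL/6 mice aged 6 weeks, purified by negative selection and stimulated for 48 h with beads carrying antibodies to CD3 and CD28. All cells then received interferon alpha at 100 U/ml together with 1 of 7 JAK inhibitors at its IC80, for 2 h or for 8 h. The inhibitors are known by codes and target labels: IFN.3885 is labelled JAK2, IFN.6226 and IFN.6228 are labelled JAK3, IFN.2485 is the TYK2 inhibitor, IFN.6222 the PAN inhibitor, IFN.6221 the JAK1/2 inhibitor and IFN.3404 the JAK1 inhibitor, and the prefix stands for the interferon. Each inhibitor and time had 1 array, 14 in all, and there was no replicate, so no p-value below measures the spread between repeated cultures. Every difference below is one between inhibitors or between times and not a response to interferon, since control cells lacking the inhibitor or the interferon were not analysed here. The labels do not say how many animals gave cells or whether they were pooled.

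Type I interferon binds a receptor that signals through the kinases JAK1 and TYK2. The 4 inhibitors whose label names JAK1 or TYK2 (JAK1, JAK1/2, PAN and TYK2) were therefore compared with the 3 that name only JAK2 or JAK3, with the PAN inhibitor taken to include JAK1. Values are log2 intensities, and a difference of 1 is a doubling. Tests used limma, adjusted by Benjamini-Hochberg over the 11761 genes tested, with a threshold of 0.05.

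Caspases are made as inactive precursors and are switched on by clustering or cleavage, so an RNA level is a measure of supply and not of activity. Initiator caspases are activated on platforms: Casp8 below death receptors, Casp9 on the Apaf1 apoptosome after cytochrome c leaves mitochondria, and Casp2 on the PIDDosome. Casp6 is an executioner that cuts lamin A, while Casp1 (inflammasome, interleukin 1 beta and interleukin 18) and mouse Casp4 (also called caspase-11, a sensor of cytosolic lipopolysaccharide) are the inflammatory members and both cut gasdermin D. In activated T cells Casp8 is also known to restrain necroptosis and to be needed for expansion. Casp1 and Casp4 are neighbouring genes in RefSeq's annotation.

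The promoters of the 3 members that passed a test of time or inhibitor class are shown because these members moved in different ways: Casp4 was lower at 8 h and lower at 2 h with inhibitors naming JAK1 or TYK2, while Casp8 and Casp9 were higher at 8 h. Each window runs from 250 bases before to 50 bases after the RefSeq start on the plus strand of GRCm38.p6: chr9:5308599-5308898 for the first of 2 listed Casp4 starts, chr1:58802252-58802551 for Casp8 and chr4:141793362-141793661 for Casp9. Capitals mark matches, on either strand, to the kappa-B motif (Casp4) and to GAAANGAAA, a GAAA repeat with 1 base between (Casp8).
Casp4: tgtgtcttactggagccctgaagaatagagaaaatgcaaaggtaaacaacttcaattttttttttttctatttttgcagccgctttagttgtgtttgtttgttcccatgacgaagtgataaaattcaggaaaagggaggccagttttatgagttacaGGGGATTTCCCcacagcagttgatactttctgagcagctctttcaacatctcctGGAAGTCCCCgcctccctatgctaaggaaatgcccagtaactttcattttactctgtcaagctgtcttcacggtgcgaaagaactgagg
Casp8: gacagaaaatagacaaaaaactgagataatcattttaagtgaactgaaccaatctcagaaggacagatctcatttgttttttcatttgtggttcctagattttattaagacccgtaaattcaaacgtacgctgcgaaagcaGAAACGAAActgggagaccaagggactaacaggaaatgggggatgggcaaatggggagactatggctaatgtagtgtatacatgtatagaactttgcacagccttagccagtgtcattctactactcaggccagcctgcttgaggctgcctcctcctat
Casp9: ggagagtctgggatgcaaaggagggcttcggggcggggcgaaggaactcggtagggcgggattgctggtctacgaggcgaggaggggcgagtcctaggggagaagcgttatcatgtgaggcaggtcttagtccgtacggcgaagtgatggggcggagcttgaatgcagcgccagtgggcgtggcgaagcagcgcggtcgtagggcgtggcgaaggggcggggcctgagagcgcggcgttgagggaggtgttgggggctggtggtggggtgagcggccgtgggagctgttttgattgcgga
Of all 32851 RefSeq promoter windows of 300 bases, 8.46% held a kappa-B match and 3.17% held GAAANGAAA. The Casp4 window had 3 kappa-B matches, starting at positions -93, -92 and -39 from the start, of which the first pair overlap. The Casp8 window had 1 GAAANGAAA match, at position -109. The core of the interferon-stimulated response element (ISRE, 3.44% of all windows) and the GAS motif TTCNNNGAA (8.3%) had no match in the window of any of the 6 members, and Casp9 matched none of the 4 motifs. The motifs were chosen with results of these arrays known, and a match is a description of letters, not of a bound site.

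Across the 14 arrays the T cell markers were bright (Cd3e at a mean of 12.37 and Cd4 at 11.82). Array medians lay between 109 and 120.5 on the linear scale, and the log2 values of any pair of arrays correlated at 0.98 to 0.998. The array of the JAK1 inhibitor at 8 h differed most from the others, with the lowest mean correlation with the arrays of its time (0.9897) and the lowest upper quartile (398.3, against up to 497.4), so values without it are given where it mattered. The summed signal of the T cell markers (13.96 to 14.08 at 2 h, 14.16 to 14.25 at 8 h), of the CD8 T cell markers (8.97 to 9.14, then 9.33 to 9.59) and of the B cell markers with a probe set (10.14 to 10.35, then 10.54 to 10.82) was higher at 8 h with no overlap. In bulk RNA, more cells of a type and more RNA per cell cannot be told apart, and the part of these shifts in the time results was not tested.

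The inflammatory pair comes first. Casp4 had log2 intensities at 2 h of 7.62 with the JAK1 inhibitor, 7.69 with JAK1/2, 7.56 with PAN and 7.68 with TYK2, against 8.01 with JAK2, 7.91 with IFN.6226 and 8.03 with IFN.6228. At 8 h the same order gave 7.46, 7.39, 7.64 and 7.31, against 7.95, 7.72 and 7.61. At 2 h all 4 inhibitors naming JAK1 or TYK2 thus lay below all 3 others, and at 8 h the groups overlapped, since the PAN array lay just above that of IFN.6228.

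**Figure D1:**
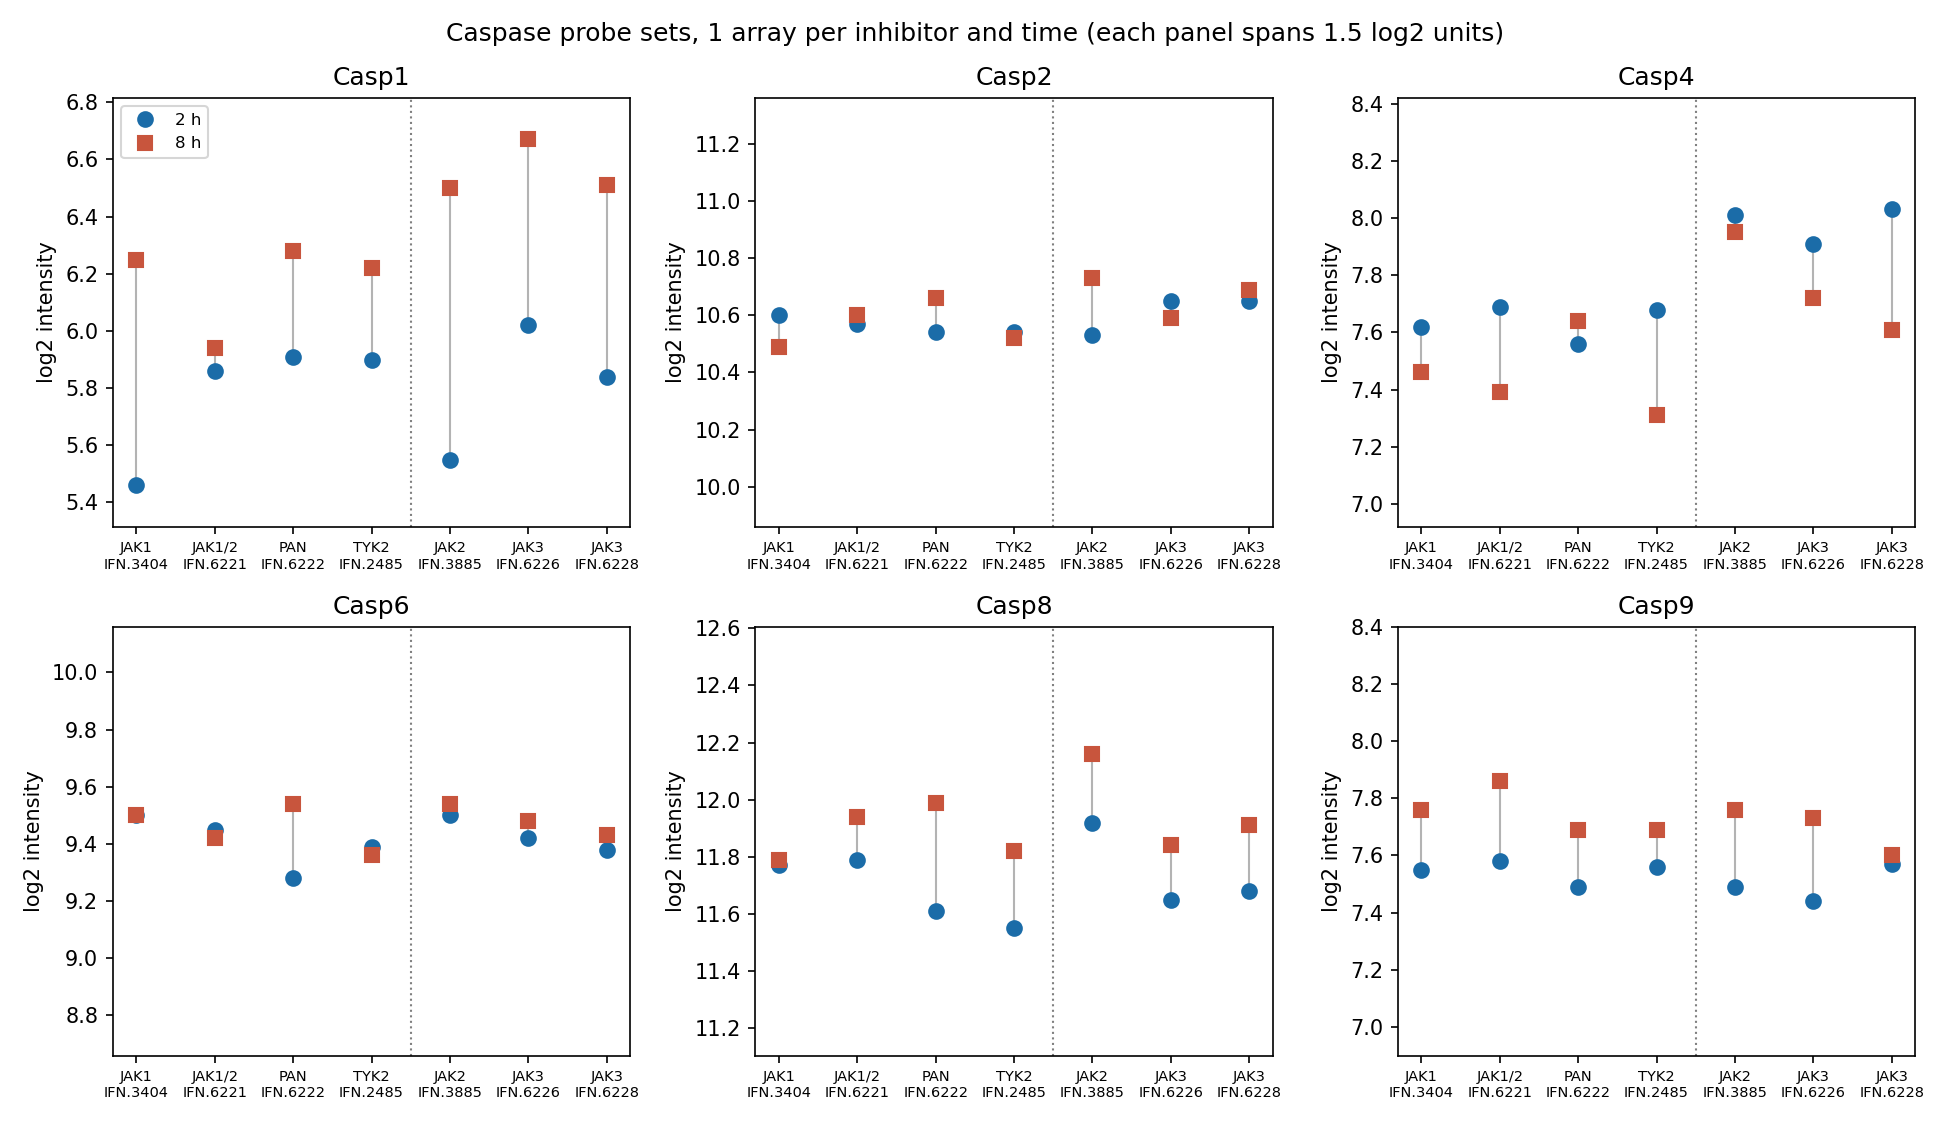
Log2 intensity (vertical axis) of each of the 6 caspases, 1 panel per gene, with the 7 inhibitors along the horizontal axis, 1 array per point (circles 2 h, squares 8 h, joined by a grey line), and a dotted line between the inhibitors that name JAK1 or TYK2 (left) and the others (right). The 2 h circles of Casp4 lie at 7.56 to 7.69 on the left and 7.91 to 8.03 on the right, and in Casp8 and Casp9 each square lies above its circle.

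Casp4 was lower at 2 h in the class naming JAK1 or TYK2: 7.64 ± 0.06 (SD, n = 4) against 7.98 ± 0.07 (SD, n = 3), a log2 difference of -0.34 (SE 0.07, 95% interval -0.50 to -0.19, 1.27-fold lower, limma adjusted p = 0.0469). It was the 1 of 5 tested members past the threshold, where 0.697% of all genes were called, each of them lower. Classes without overlap were found in the same direction in 3.15% of genes. The call lies near the threshold and is lost when any inhibitor is left out. The adjusted p was 0.228 without IFN.6228, 0.167 without PAN, 0.148 without JAK2, 0.128 without IFN.6226, 0.1 without JAK1/2, 0.0949 without JAK1 and 0.0583 without TYK2, with differences of -0.38 to -0.32. Median centring (0.0833), no filter (0.069) and robust moderation (0.0694) also ended it, with the difference at -0.34 in each.

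The summed signal of macrophage and monocyte markers separated the same classes. The summed signal of all 6 was 9.81 to 9.99 in the class naming JAK1 or TYK2 and 10.11 to 10.16 in the other at 2 h, and 9.96 to 10.15 against 10.20 to 10.33 at 8 h. Of the 6, Ctss (mean 9.25, a lysosomal protease), Cd68 (7.43) and Lyz2 (7.12) were above the minimum for testing, and Fcgr1 (6.23), Csf1r (5.49) and Adgre1 (4.72) were below it. A sum of linear intensities gives the most weight to the brightest, Ctss, and single markers are not given by class here. Their part in the Casp4 result was not tested.

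Rsad2, which encodes the antiviral protein viperin and is a standard interferon-induced gene, gives the scale of the class difference. At 2 h it read 6.54, 7.25, 7.33 and 7.12 with the JAK1, JAK1/2, PAN and TYK2 inhibitors, against 9.08, 8.90 and 9.06 with JAK2, IFN.6226 and IFN.6228. Its difference of -1.95 (SE 0.15, 3.88-fold lower, limma adjusted p = 0.000122) was in the same direction as that of Casp4 and far larger. Ifit1, another such gene, differed by -1.74 (SE 0.32, adjusted p = 0.0234), and Irf7, a transcription factor of the interferon response, by -1.50 (SE 0.33, adjusted p = 0.0728).

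At 8 h Casp4 stood at 7.45 ± 0.14 (SD, n = 4) and 7.76 ± 0.17 (SD, n = 3). The difference of -0.31 (SE 0.11, 95% interval -0.56 to -0.07, limma adjusted p = 0.307) did not pass, and without the 8 h array of the JAK1 inhibitor it was -0.32 (adjusted p = 0.341). At this time 0% of all genes passed in limma, with 1834 of 11761 at an unadjusted p under 0.05. The class difference in Casp4 changed by 0.03 between the times (95% interval -0.27 to 0.33, limma adjusted p = 0.905), where 0.102% of all genes were called.

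Casp4 fell from 2 h to 8 h, from 7.78 ± 0.19 to 7.58 ± 0.22 (SD over 7 inhibitors), a change of -0.20 (SE 0.07, 95% interval -0.35 to -0.05, 1.15-fold lower, limma adjusted p = 0.0261). It was lower at 8 h with 6 of 7 inhibitors, with changes from -0.42 (IFN.6228) to -0.05 (JAK2), and slightly higher with PAN (0.08). Adjusted p rose above the threshold without IFN.6228 (0.1), TYK2 (0.0891), JAK1/2 (0.0663) or IFN.6226 (0.053), and to 0.0966 when values were not paired by inhibitor. Over the same hours Rsad2 rose by 0.95 (SE 0.17, adjusted p = 0.000313), so Casp4 and this interferon-induced gene, which differed between classes in the same direction at 2 h, moved in opposite directions with time.

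Casp1 was dim, at a mean of 6.06 against a minimum of 6.29, and lies outside the main tests. At 2 h it read 5.46, 5.86, 5.91 and 5.90 with the JAK1, JAK1/2, PAN and TYK2 inhibitors, against 5.55, 6.02 and 5.84 with JAK2, IFN.6226 and IFN.6228. At 8 h it read 6.25, 5.94, 6.28 and 6.22, against 6.50, 6.67 and 6.51, so that the classes overlapped at 2 h and did not at 8 h. When all 19752 genes were tested without the filter, Casp1 rose by 0.55 from 2 h to 8 h (SE 0.09, 95% interval 0.35 to 0.74, 1.46-fold, limma adjusted p = 0.000223), and 13.1% of all genes rose in that fit. It was higher at 8 h with 7 of 7 inhibitors, by 0.08 (JAK1/2) to 0.95 (JAK2).

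The class difference in Casp1 at 8 h, 6.17 ± 0.16 (SD, n = 4) against 6.56 ± 0.09 (SD, n = 3), was -0.38 (SE 0.11, 95% interval -0.61 to -0.16). It did not pass without the filter (limma adjusted p = 0.305). Classes without overlap, the JAK1 or TYK2 class lower, were seen at 8 h in 13.7% of tested genes. The summed macrophage and monocyte signal given above differed the same way at this time. Other marker lists separated the classes at 8 h in the opposite direction: granulocyte (7.32 to 7.52 against 7.24 to 7.28), dendritic cell (7.74 to 7.90 against 7.48 to 7.70) and skeletal muscle (9.46 to 10.06 against 9.32 to 9.45). The minimum for testing was reached by 0 of 4 granulocyte, 1 of 3 dendritic cell and 4 of 5 skeletal muscle markers. The part of these lists in the 8 h results was not tested. At 2 h the Casp1 difference was -0.03 (95% interval -0.30 to 0.24). The neighbours Casp1 and Casp4 therefore changed in opposite directions from 2 h to 8 h.

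**Figure D2:**
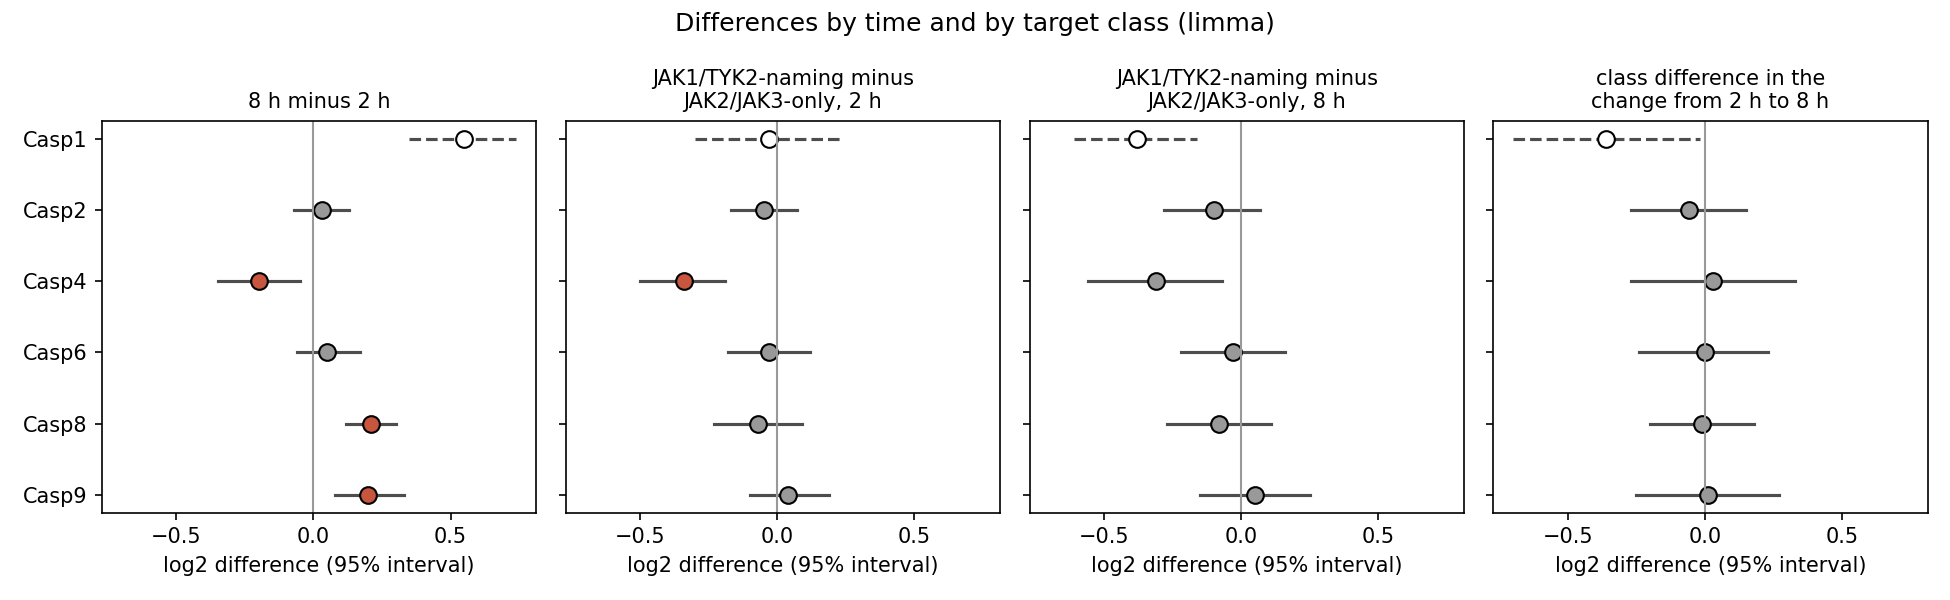
Log2 differences (horizontal axis, points with 95% intervals) for the 6 caspases (vertical axis) between times, between classes at 2 h and at 8 h, and between classes in the change with time (red points passed the adjusted threshold, grey points did not, and the white points and dashed lines of Casp1 come from the fit without the filter). With time Casp8 and Casp9 lie above 0 and Casp4 below it, and in the class comparison at 2 h the interval of Casp4, -0.50 to -0.19, is the one that leaves out 0 among the tested members.

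Among the initiators, Casp8 and Casp9 rose with time. Casp8 read 11.77, 11.79, 11.61 and 11.55 at 2 h with the JAK1, JAK1/2, PAN and TYK2 inhibitors, and 11.92, 11.65 and 11.68 with JAK2, IFN.6226 and IFN.6228. At 8 h it read 11.79, 11.94, 11.99 and 11.82, and 12.16, 11.84 and 11.91. The ranges of the times overlapped, yet each inhibitor had the higher value at 8 h, by 0.03 (JAK1) to 0.38 (PAN).

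Casp8 rose by 0.21 (SE 0.04, 95% interval 0.12 to 0.30, 1.16-fold, limma adjusted p = 0.000823), from 11.71 ± 0.12 to 11.92 ± 0.13 (SD over 7 inhibitors). The rise kept its call in 17 of 17 alternatives, at 0.18 to 0.24. Casp8 was not detectably different between classes: -0.07 at 2 h (95% interval -0.23 to 0.09) and -0.08 at 8 h (-0.27 to 0.11).

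Casp9 read 7.55, 7.58, 7.49 and 7.56 at 2 h with the JAK1, JAK1/2, PAN and TYK2 inhibitors, and 7.49, 7.44 and 7.57 with JAK2, IFN.6226 and IFN.6228. At 8 h it read 7.76, 7.86, 7.69 and 7.69, and 7.76, 7.73 and 7.60, so each 8 h array lay above each 2 h array. Such separation in the upward direction was seen in 8.92% of all genes. Casp9 rose by 0.20 (SE 0.06, 95% interval 0.08 to 0.33, 1.15-fold, limma adjusted p = 0.0108), from 7.52 ± 0.05 to 7.73 ± 0.08 (SD over 7 inhibitors), and kept its call in 16 of 16 alternatives that tested it. Between classes it differed by 0.04 at 2 h (95% interval -0.10 to 0.19) and 0.05 at 8 h (-0.15 to 0.25).

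Casp2 lay between 10.49 and 10.73 on all 14 arrays and Casp6 between 9.28 and 9.54. From 2 h to 8 h Casp2 differed by 0.03 (95% interval -0.07 to 0.13, limma adjusted p = 0.658) and Casp6 by 0.05 (-0.06 to 0.17, adjusted p = 0.44). After quantile normalization both passed, at 0.08 (adjusted p = 0.0477) and 0.13 (0.0248), so a small rise of both depends on the normalization. Between classes Casp2 differed by -0.05 at 2 h (95% interval -0.17 to 0.07) and -0.10 at 8 h (-0.28 to 0.07), and Casp6 by -0.03 at 2 h (-0.18 to 0.12) and -0.03 at 8 h (-0.22 to 0.16).

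With time, 3 of the 5 tested members passed, 2 higher and 1 lower, where 49.6% of all genes passed (21.4% higher and 28.2% lower). The median change of the members was 0.05 and that of all genes 0.02. A time change among the 5 tested caspases was therefore about as common as among genes at large, and small in size. This leaves out Casp1, which rose by 0.55 in the fit without the filter. In that fit 4 of 6 members passed, against 5852 of 19752 genes. Of the 5, Casp8 and Casp9 were higher at 8 h with each of the 7 inhibitors, as were 16.1% of all genes.

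No tested member passed in the comparison of the change with time between the classes, and the differences ran from -0.06 (Casp2) to 0.03 (Casp4), with limma adjusted p of 0.757 to 0.995. Casp8, for example, rose by 0.20 ± 0.15 (SD, n = 4) in the class naming JAK1 or TYK2 and by 0.22 ± 0.02 (SD, n = 3) in the other, a difference of -0.01 (95% interval -0.20 to 0.18). For Casp1, without the filter, the difference was -0.36 (95% interval -0.70 to -0.02, adjusted p = 0.5).

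Each inhibitor was then set against the other 6 over both times, and 0 of the 5 members passed in any of these 7 comparisons, which share arrays. The share of all genes called was 7.77% for JAK1, 0.0765% for JAK2, 0.0085% for JAK1/2 and 0% for PAN, TYK2, IFN.6226 and IFN.6228 in limma, where 38 genes (PAN), 569 (TYK2), 375 (IFN.6226) and 811 (IFN.6228) had an unadjusted p under 0.05. Among the 5 tested members, an unadjusted p under 0.05 was seen for Casp4 and Casp8 with the JAK2 and with the TYK2 inhibitor. These inhibitors lay at opposite ends of the range. Such a p was seen in 547 of 11761 genes (4.65%) with JAK2 and in 569 (4.84%) with TYK2. Casp1, in the fit without the filter, differed by 0.33 with IFN.6226 (95% interval 0.05 to 0.61, limma unadjusted p = 0.0253) and did not pass after adjustment.

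Casp8 with the JAK2 inhibitor averaged 12.04, against 11.78 with the others, a difference of 0.26 (SE 0.06, 95% interval 0.13 to 0.39, 1.20-fold, limma adjusted p = 0.119). It passed without the 8 h array of the JAK1 inhibitor (0.24, adjusted p = 0.0186) and without both arrays of that inhibitor (0.26, adjusted p = 0.041). Casp4 with the JAK2 inhibitor averaged 7.98 against 7.63, a difference of 0.34 (SE 0.10, 95% interval 0.13 to 0.56, adjusted p = 0.371). With the TYK2 inhibitor both were at their lowest mean: Casp4 at 7.49, a difference of -0.22 (95% interval -0.44 to -0.01, adjusted p = 0.991), and Casp8 at 11.68, a difference of -0.15 (-0.28 to -0.02, adjusted p = 0.921).

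**Figure D3:**
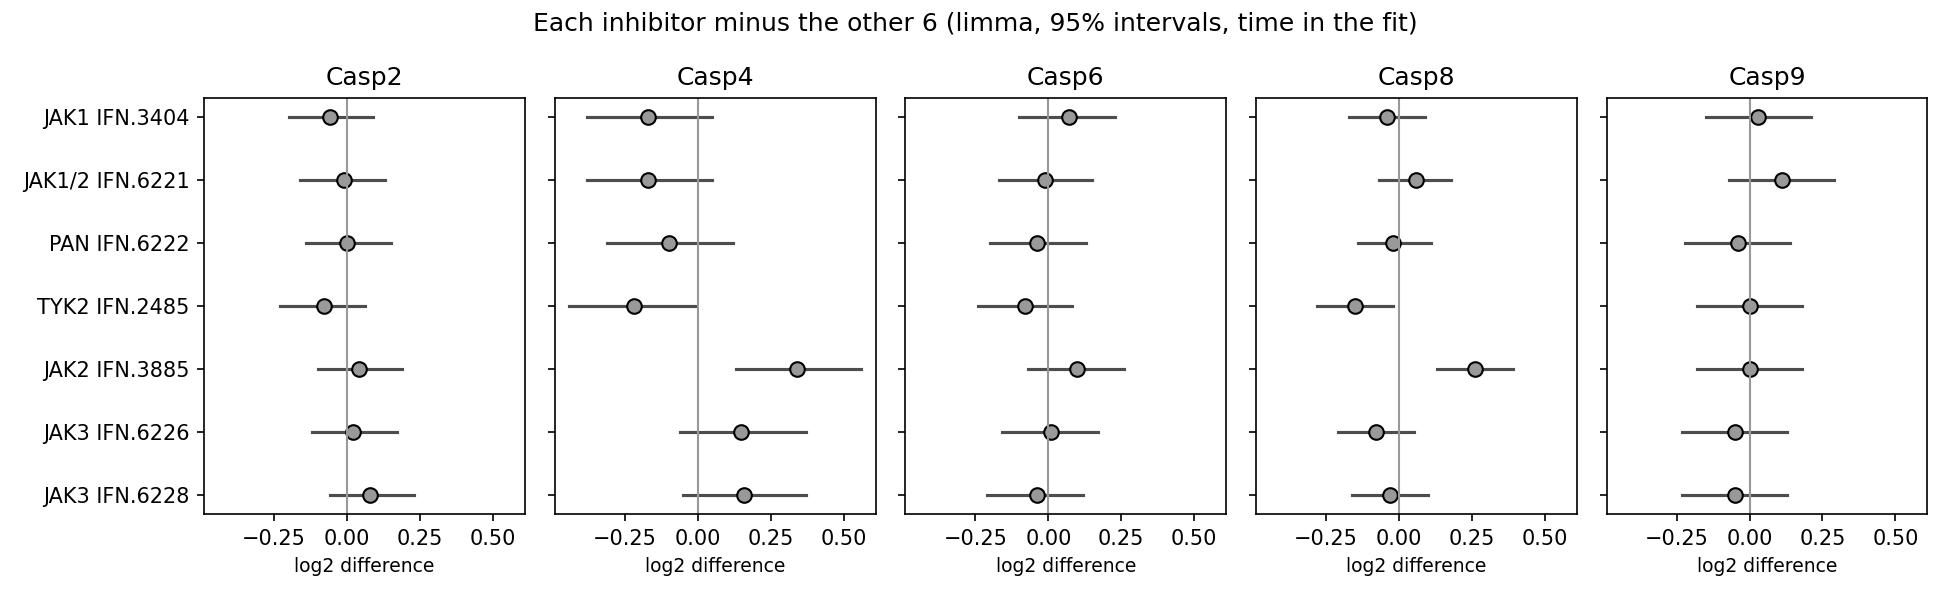
Difference of each inhibitor (vertical axis) from the other 6 in log2 intensity (horizontal axis, points with 95% intervals), 1 panel for each of the 5 tested caspases. The JAK2 inhibitor gave the highest Casp8 (0.26) and Casp4 (0.34) differences and the TYK2 inhibitor the lowest (-0.15 and -0.22), none past the adjusted threshold.

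Ordered by the mean of both times, Casp4 ran from JAK2 (7.98) through IFN.6228 (7.82), IFN.6226 (7.81), PAN (7.60), JAK1 (7.54) and JAK1/2 (7.54) to TYK2 (7.49). The widest step between neighbours, 0.21 from IFN.6226 to PAN (95% interval -0.06 to 0.49), is the step between the classes, and the 95% interval of every step held 0. Casp8 ran from JAK2 (12.04) through JAK1/2 (11.86), PAN (11.80), IFN.6228 (11.79), JAK1 (11.78) and IFN.6226 (11.75) to TYK2 (11.68). Its first step was 0.18 (95% interval 0.01 to 0.34, not adjusted) and the other steps were at most 0.06, with intervals that held 0. The order of Casp8 mixed the classes, unlike that of Casp4. In Casp2, Casp6 and Casp9 no step between neighbours was above 0.07, and each interval held 0.

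The 2 inhibitors labelled JAK3 gave close values for the tested members. IFN.6226 minus IFN.6228 was 0.00 for Casp4 (95% interval -0.28 to 0.27), -0.05 for Casp8 (-0.21 to 0.12), 0.00 for Casp9 (-0.24 to 0.23), -0.05 for Casp2 (-0.24 to 0.14) and 0.04 for Casp6 (-0.17 to 0.26). These intervals leave room for differences of the size seen between times. In limma 0% of all genes passed in this comparison, with 42 at an unadjusted p under 0.05.

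The genes most like each member were sought by Pearson r over the 14 arrays after the mean of each time was subtracted, as a description in which all points share the normalization and the inhibitors. For Casp4 they were Ythdf1 (0.895), Gm4841 (0.881) and Tent4a (0.874), and the reference genes stood at 0.747 (Rsad2), 0.645 (Ifit1) and 0.623 (Irf7). For Casp8 they were Eif4enif1 (0.906), Agfg1 (0.906) and Polr1b (0.900), with Rsad2 at 0.419. Casp9 ran less closely with any gene, led by Ppp1r12b (0.826), Rapsn (0.810) and Lim2 (0.798), and stood at -0.326 with Rsad2. For Casp2 they were Abhd2 (0.909), Dnmt3a (0.909) and Lancl2 (0.906), and for Casp6 Irf5 (0.859), Aff1 (0.854) and Nr1d1 (0.833). Among the members themselves r was highest for Casp6 with Casp8 (0.664) and for Casp2 with Casp4 (0.637). Set against the r of a member with all tested genes, the first pair lay at percentile 98.7 for Casp6 and 96.8 for Casp8. The second pair lay at percentile 81.9 for Casp2 and 96.3 for Casp4. On the same scale Rsad2 lay at percentile 99.3 for Casp4, 79.5 for Casp8 and 13.8 for Casp9.

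The wider pathway was taken from 6 lists of 85 genes (death receptors, mitochondria, inflammasomes, inhibitors of apoptosis, substrates, other caspases and adaptors), of which 77 had a probe set of their own symbol alone and 64 were tested. From 2 h to 8 h, 18 of the 64 rose (28.1%) and 17 fell (26.6%), close to the shares among all genes given above, and the median change was 0.04. After median centring 11 rose and 17 fell (1956 and 3460 of all 11761 genes), and after quantile normalization 25 rose and 16 fell (3239 and 3126 of 11763).

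The death receptor arm, which leads to Casp8, held 5 that rose (38.5%) and 4 that fell (30.8%) among 13 tested. Among all genes 21.4% rose and 28.2% fell. Of the ligands, Tnf fell by 1.21 (SE 0.06, adjusted p = 3.52e-09), from 10.08 ± 0.13 to 8.87 ± 0.12 (SD over 7 inhibitors), and Fasl, the ligand of Fas, fell by 1.11 (SE 0.07, adjusted p = 1.75e-08). Tnfrsf1a, a receptor of Tnf, rose by 0.72 (SE 0.08, adjusted p = 3.75e-06). These changes were several times that of Casp8 itself.

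The mitochondrial arm, which leads to Casp9, had 3 that rose (15.8%) and 8 that fell (42.1%) among 19, against 21.4% and 28.2% of all genes. Among those that fell was the survival factor Bcl2, at -0.78 (SE 0.06, limma adjusted p = 1.05e-07). The inflammasome arm, which leads to Casp1, had 6 that rose (60%) and 1 that fell (10%) among 10, against the same shares of all genes. The 6 that rose were not among the largest changes and are not named. The one that fell was Ninj1, which ruptures the plasma membrane in lytic death, at -1.06 (SE 0.06, adjusted p = 1.03e-08). Of 12 substrates 1 rose and 2 fell, and Lmna, which encodes the lamin cut by Casp6, fell by 0.72 (SE 0.06). Of 6 inhibitors of apoptosis 2 rose and 1 fell, and of 4 other caspases and adaptors 1 rose and 1 fell.

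**Figure D4:**
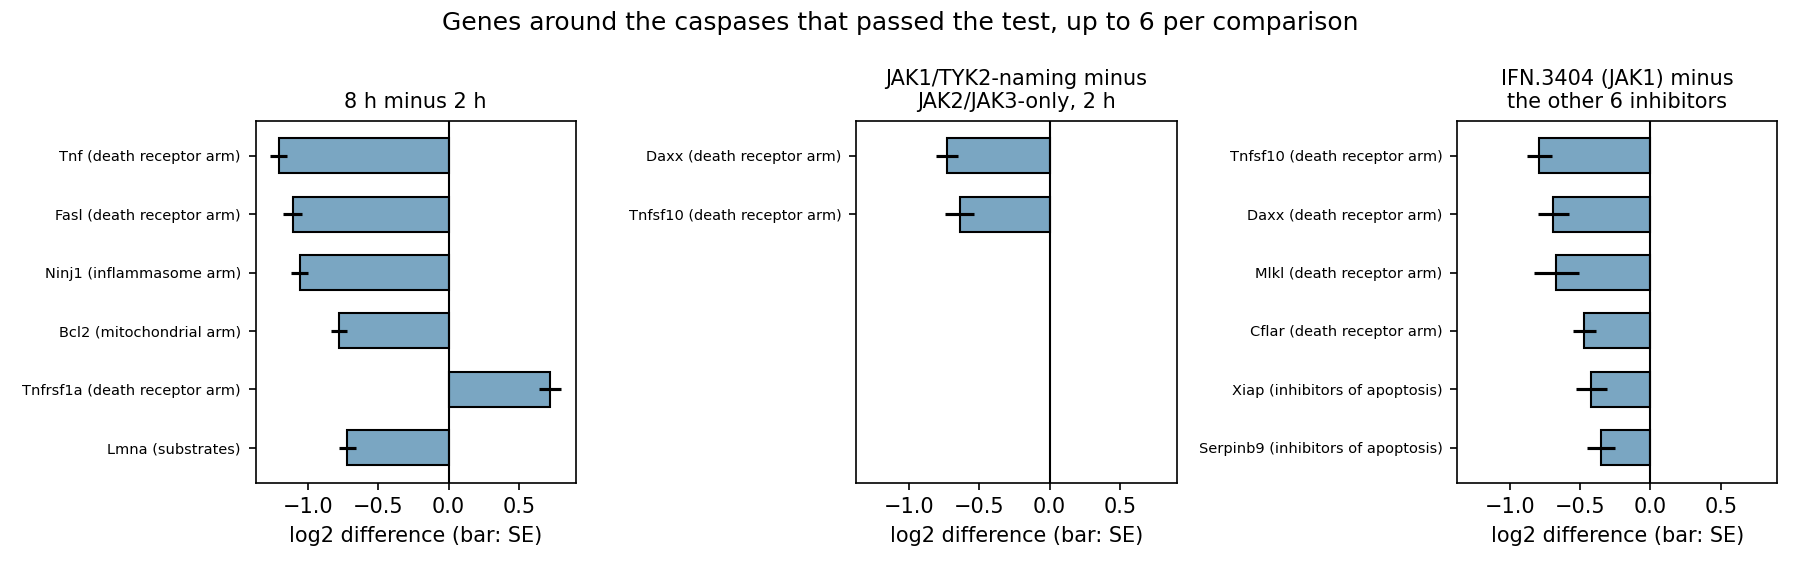
Log2 differences (horizontal axis, bars with SE) of the pathway genes that passed, up to 6 with the largest size in each comparison, with their list in brackets: 8 h minus 2 h, the class comparison at 2 h, and the JAK1 inhibitor against the other 6. With time Tnf (-1.21) and Tnfrsf1a (0.72) mark the extremes, while each gene shown in the other panels lies below 0.

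In the class comparison at 2 h, 2 of the 64 pathway genes passed, both lower in the class naming JAK1 or TYK2 and both in the death receptor arm, against 0.697% lower among all genes. Daxx, an adaptor first described with Fas, differed by -0.73 (SE 0.08, 1.65-fold lower, limma adjusted p = 0.000967). Tnfsf10, which encodes the death ligand TRAIL, differed by -0.64 (SE 0.10, adjusted p = 0.00753), and did not pass without IFN.6228 (adjusted p = 0.0978) or without JAK2 (0.058). Both differences were larger than that of Casp4. The median of the 64 was -0.01 and that of all genes 0.01. At 8 h 0 of the 64 passed, and their median was -0.11 against -0.08 for all genes.

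With the JAK1 inhibitor alone, 9 of the 64 pathway genes were lower and 0 higher, where 6.81% of all genes were lower and 0.961% higher. They included Tnfsf10 (-0.79, SE 0.09), Daxx (-0.69, SE 0.11), the necroptosis effector Mlkl (-0.67, SE 0.16) and Cflar (-0.47, SE 0.08), the inhibitor that pairs with Casp8, as well as the caspase inhibitor Xiap (-0.42, SE 0.11) and the granzyme B inhibitor Serpinb9 (-0.35, SE 0.10). Casp8 itself differed by -0.04 with this inhibitor (95% interval -0.17 to 0.09). The count depended on the inhibitors kept, each left out with both its arrays, and on the scaling. It was 3 without IFN.6228, 4 without IFN.6226, 4 without PAN and 5 without TYK2, and 4 after median centring. Among all genes 336, 417, 505, 424 and 517 were lower in these fits, in that order, against 801 in the main fit. The count was 8 lower and 1 higher after quantile normalization. It was 6 of 77 lower without the filter (577 of 19752 genes) and 9 of 50 with the 60th percentile filter (957 of 7760). Without the 8 h array of the JAK1 inhibitor only 1 array of it remains, so no count is given for that fit. Among all genes quantile normalization gave 776 higher and 762 lower with this inhibitor, against 113 and 801 without it.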

How the data were processed

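RNA was hybridized to Affymetrix Mouse Gene 1.0 ST arrays. For each array the deposited file gives the intensity of each probe set, made by the authors with Affymetrix Power Tools and RMA per the submitters' processing notes, which give no version, and the arrays normalized together are not given in the sources used here. Values ran from 4.78 to 22879 and were read as linear, so log2 was taken here. Groups and times came from the sample titles and labels.

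The 21425 of 24922 probe sets with 1 gene symbol were used, the brightest per gene, and those with several (1399) or without a symbol (2098) were left out. Symbols were checked against RefSeq names of GRCm38.p6, where 21347 identifiers matched and 0 symbols changed. A gene was tested if the mean log2 intensity of that probe set reached the 40th percentile (6.29). Precision is limited by how many arrays there are.

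Tests used limma 3.58.1 in R 4.3.3 (lmFit, eBayes with a variance trend) and Benjamini-Hochberg adjustment over all genes tested. Times and single inhibitors came from 1 additive fit of inhibitor and time over 14 arrays, so its residual is their interaction plus noise, and classes from 1 value per inhibitor. Python 3.11.15 made the plots. The members, gene lists and markers were chosen with earlier results of these data known. Named genes are the members, up to 6 pathway genes per comparison that passed with the largest size, the 3 genes most like each member, and Rsad2, Ifit1 and Irf7. Promoters are from RefSeq and were found for all 6 members.

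The alternatives changed the scaling (median centring or quantile normalization), the filter (none, or the 60th percentile), the summary of a gene (mean of its probe sets), the fit (no trend, robust moderation, no pairing by inhibitor), the offset before the log (50) and the arrays used (each inhibitor left out in turn, or IFN.3404 at 8 h alone). On simulated data with 11761 genes, a log2 change of 0.5 was recovered in 95.5% of changed genes for time, 73.1% for classes at 2 h, 79.1% at 8 h and 22.4% for the change by class. A change of 1 was recovered in 100%, 97%, 97% and 92.5%. The simulated noise was the residual spread of the additive fit, with no spread between inhibitors. The shares for classes at 2 h and at 8 h can therefore be too high for the real arrays. Changes below 0.5, such as those of the tested caspases, were not simulated.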

Additional observations from a re-analysis of the deposited data

How the results depend on the processing

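Of 183 counts of members under an alternative, 170 stayed within 1.5 times the main count and 13 moved. In most comparisons the main count was 0, so many of the 170 are a 0 that stayed 0. Also within 1.5 times were, for time, 4 of 6 members without the filter (5852 of 19752 genes), in place of 3 of 5. With the 60th percentile filter it was 2 of 4 (4790 of 7760 genes). Casp1 was tested only without the filter, and Casp9 was not tested with the 60th percentile filter. With time, 5 of 5 members passed after quantile normalization in place of 3, where 6365 of 11763 genes passed. In the class comparison at 2 h, where Casp4 passed, the count was 0 with median centring, without the filter and with robust moderation, and 0 without each inhibitor in turn (lowest 0, highest 0). For the JAK2 inhibitor against the other 6 it was 1 (Casp8) in place of 0 without the 8 h array of IFN.3404, and 0 to 1 with an inhibitor left out, the 1 being without IFN.3404. Over 17 alternatives the Casp4 change with time was -0.25 to -0.16 and passed in 12. Its class difference at 2 h was -0.38 to -0.28 over 15 and passed in 5.

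Of 903 member values under an alternative, 860 kept direction and side of the threshold, 15 lost their call, 4 gained one and 24 changed sign, none beyond 0.1 and none past the threshold before or after. After quantile normalization these were 0.1 for Casp6 between classes at 8 h, 0.02 for Casp2 in the change by class, -0.01 and 0.02 for Casp6 with IFN.6226 and IFN.6221, and 0.03 for Casp2 with IFN.3404. After median centring the change by class was -0.02 for Casp4 and -0.05 for Casp9. Without the 8 h array of IFN.3404 it was 0.05 for Casp8, and the IFN.3404 differences were 0.02 (Casp2) and 0.06 (Casp8). With each inhibitor left out in turn, the change by class ranged from -0.07 to 0.12 for Casp4, -0.08 to 0.05 for Casp9, -0.07 to 0.05 for Casp8 and -0.12 to 0.01 for Casp2. The class difference ranged from -0.06 to 0.01 for Casp6 at 2 h, and for Casp8 from -0.12 to 0.01 at 2 h and -0.15 to 0.01 at 8 h. Against the other inhibitors Casp8 ranged from -0.05 to 0.02 with IFN.6228 and -0.04 to 0.03 with IFN.6222, and Casp6 from -0.01 to 0.02 with IFN.6226. The cause of these moves was not tested.

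Among all genes, the class comparison at 2 h called 82, and 28 to 106 under the alternatives, lowest without IFN.6228. The change by class called 12 (2 to 40), the JAK2 inhibitor 9 (1 to 80), and the JAK1 inhibitor 914. Among the fits that kept both arrays of the JAK1 inhibitor, its count ran from 361 without IFN.6228 to 1538 after quantile normalization. The replicate number in the labels is 1 throughout and pairs no samples, and the comparison of times was paired by inhibitor instead. With no replicate block of this kind 5772 genes passed in place of 5830, the Casp4 change stayed at -0.20 and its adjusted p rose to 0.0966, and 2 members passed in place of 3.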
